A study of Danio rerio with 6 samples.

Results

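The spalt-like (sall) genes of zebrafish were examined in RNA-seq libraries of the tissue posterior to the last somite at 16 hours post fertilisation. They were taken by gene name from the deposited tables of counts and FPKM, which gave 6 genes of 32520, namely sall1a, sall1b, sall2, sall3a, sall3b and sall4. The choice used no measured value. The series compares 3 libraries from embryos injected with a sall4 morpholino, cited in the labels to Harvey and Logan, with 3 control libraries. Control 1 was made from embryos given a scrambled morpholino, while controls 2 and 3 were from embryos without injection. A morpholino is an antisense oligomer that blocks the translation or the splicing of its target transcript. The labels name no strain, no clutch and no number of pooled embryos, and they give no dose. The p-values thus cover no more than the spread among these libraries, some of which can be technical. The title of the series asks about the part played by sall1a and sall4 in elongation of the posterior body.

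Sall proteins are transcription factors with several pairs of C2H2 zinc fingers spread along the protein, named after the spalt gene of Drosophila. In vertebrates a short N-terminal motif of many Sall proteins binds the nucleosome remodelling and deacetylase complex, NuRD, and Sall proteins often act as repressors. SALL4 belongs to the pluripotency network of mammalian embryonic stem cells, and human SALL1 and SALL4 are mutated in syndromes with limb malformations. The zebrafish a and b copies of sall1 and sall3 date from the genome duplication of teleost fish.

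Total counts ranged from 18626513 to 42423495 per library. Markers of the labelled tissue were read in every library, with the presomitic mesoderm gene msgn1 at 2140.8 to 8006.2 CPM and the tailbud gene tbxta at 460.9 to 709.2 CPM. The listed tailbud marker wnt8a was not met, as its rows had at most 0.04889 CPM and were not tested. A list of 7 head genes summed to 2.848 to 14.25 CPM. The morphant libraries were less alike than the controls, with a median within-group SD of log2 CPM of 0.595 against 0.253 over 17803 tested genes. Levels also ran with gene length. The Spearman correlation, across genes, of length with a library's departure from the average library was -0.416 in morphant 1, 0.426 in morphant 2, -0.282 in morphant 3 and -0.013 to 0.206 in controls. Long genes were therefore low in morphant 1 and high in morphant 2, and genes are not independent replicates. All sall genes are long, from 1.97 times the length of the median gene for sall1b to 3.75 times for sall4. This trend can thus bear on each of them.

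The 6 genes covered a wide range of levels per length. FPKM is the deposited level scaled to gene length and to a size factor of each library, which differs from its total counts. It was 121.6 to 176.0 for sall4, 11.21 to 27.85 for sall1a and 9.094 to 35.63 for sall3b. The values were 0.5742 to 3.138 for sall2, 0.06853 to 0.5529 for sall3a and 0 to 0.05886 for sall1b. The gene sall4 was first in all 6 libraries, and its level lay above that of 95.1% to 98.1% of tested genes. The ranges of sall1a and sall3b overlapped, so their order is not settled over all libraries. Between every other pair of neighbours in the order the ranges over the 6 libraries were separate. In each of the 3 controls sall1a ranked 2 and sall3b 3 in the family, and in each of the 3 morphants sall3b ranked 2 and sall1a 3.

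**Figure D1:**
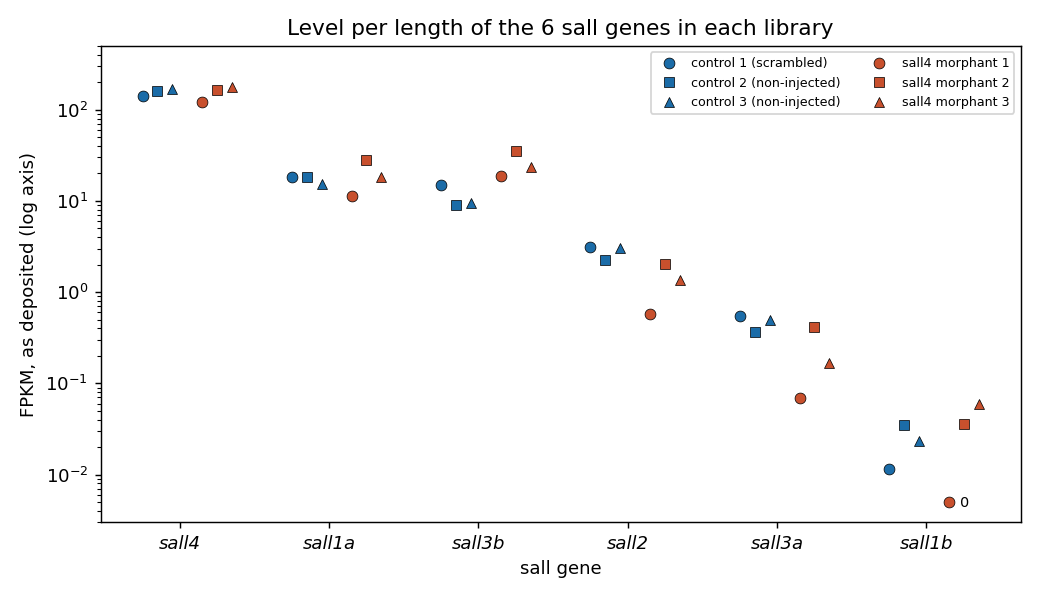
FPKM of each sall gene (log axis) in the 3 control libraries (blue) and the 3 sall4 morphant libraries (red), 1 point per library. The level of sall4 stays between 121.6 and 176.0 in both groups, sall3b is higher and sall2 lower in every morphant than in any control, and the value of 0 for sall1b in morphant 1 is drawn at the foot of the axis.

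The morpholino target sall4 (ENSDARG00000044485) gave FPKM values of 140.1 in control 1, 162.0 in control 2 and 167.6 in control 3. In morphants 1, 2 and 3 its values were 121.6, 162.7 and 176.0. The scrambled control and morphant 1 were the lowest libraries, and the groups overlapped. The log2 fold change, morphant minus control, was -0.03 with a 95% interval from -0.64 to 0.59 (SE 0.27, edgeR adjusted p = 0.97). The interval holds both a moderate fall and a moderate rise of the transcript. A morpholino need not lower the transcript of its target, so this level does not check the injection. Its spread in CPM, the count scaled to a TMM-adjusted library size but not to length, was small for this data set, with an SD of log2 CPM of 0.15 in controls and 0.28 in morphants.

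The gene sall3b (ENSDARG00000057586), a member of the SALL3 pair, had the lowest adjusted p of the family. Its level was 86.31 CPM in the scrambled control and 54.21 and 55.83 CPM in the non-injected controls. The morphants had 109.9, 215.5 and 136.1 CPM. All morphants lay above all controls, with the scrambled control nearest to them and morphant 2 highest. In bulk tissue, fewer cells of a type and less RNA per cell cannot be told apart, and the same holds for more. The log2 fold change was 1.23, with a 95% interval from 0.44 to 2.03 (SE 0.35, unadjusted p = 0.0070), and it did not pass the threshold over all genes (edgeR adjusted p = 0.33, DESeq2 adjusted p = 0.075). Against the 2 non-injected controls alone it was 1.48 (SE 0.41), and with the scrambled library as the only control, its spread taken to equal that of the morphants, it was 0.82 (SE 0.65). The direction was the same in all 19 distinct alternatives tried, where leaving out control 1 and using the non-injected controls alone are the same fit.

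The other SALL3 copy, sall3a (ENSDARG00000079613), was much less abundant. The controls held 76, 50 and 137 counts and the morphants 7, 72 and 27 counts, in order of library number. These are 3.669, 2.46 and 3.349 CPM for the controls and 0.4598, 2.818 and 1.102 CPM for the morphants. Morphants 1 and 3 lay below all controls and morphant 2 did not. Counting error is large here, with an exact Poisson 95% interval of 2.81 to 14.4 counts for the 7 counts of morphant 1. The log2 fold change was -1.09 with a 95% interval from -2.45 to 0.28 (SE 0.60, edgeR adjusted p = 0.58). Without morphant 2 it was -1.98 and passed the threshold (edgeR adjusted p = 0.043), in a fit that called 4.37% of all tested genes lower. When the trend with gene length was taken out of the same libraries it was -1.54 (edgeR adjusted p = 0.057), against 2.58% of tested genes called lower. This last setting was added after the data were seen.

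The gene sall2 (ENSDARG00000075116), an ancient and more divergent member of the family, was lower in every morphant than in any control. Its controls gave 18.1, 13.38 and 17.94 CPM, and its morphants 3.35, 12.06 and 7.712 CPM. Morphant 2 lay only just below control 2, and morphant 1 lay far below the rest. The log2 fold change was -1.09, with a 95% interval from -2.13 to -0.05 (SE 0.45, unadjusted p = 0.042), and it did not pass over all genes (edgeR adjusted p = 0.50, DESeq2 adjusted p = 0.30). It was -1.58 without morphant 2, where it passed (edgeR adjusted p = 0.043), in a fit that called 4.37% of all tested genes lower. With the trend with gene length also taken out, a setting added after the data were seen, it was -1.20 (edgeR adjusted p = 0.052). In that setting 2.58% of tested genes were called lower. The log2 fold change of sall2 was negative in all 19 distinct alternatives.

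The gene sall1a (ENSDARG00000074319), the second gene in the title of the series, showed no shift beyond its spread. Controls gave 114.2, 116.2 and 97.43 CPM, while morphants 1, 2 and 3 gave 70.93, 180.6 and 112.7 CPM. The controls fell between the lowest and the highest morphant. The log2 fold change was 0.15 with a 95% interval from -0.66 to 0.97 (SE 0.36, edgeR adjusted p = 0.87), and it turned to -0.27 without morphant 2. The SD of log2 CPM was 0.67 in morphants against 0.14 in controls.

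The last member, sall1b (ENSDARG00000075891), was close to undetected. Controls 1, 2 and 3 held 1, 3 and 4 counts, and morphants 1, 2 and 3 held 0, 4 and 6 counts. The exact Poisson 95% intervals of these counts all overlap, from an upper bound of 3.69 for the 0 counts of morphant 1 to an interval of 2.2 to 13.1 for the 6 counts of morphant 3. A count of 0 allows up to 3 counts in that library. No difference was detectable at this depth, no fold change is given, and the gene was not among those tested. These intervals cover counting error only.

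Of the 5 sall genes tested, 0 passed the edgeR threshold of 0.05 after adjustment over all tested genes, and 0 passed with DESeq2. The background was 0.0281% of 17803 tested genes with edgeR, all of them higher in morphants, and 1.89% with DESeq2. At an unadjusted edgeR p under 0.05 there were 2 of the 5, sall3b and sall2, against 9.66% of all tested genes. The groups did not overlap for the same 2, against 17.0% of all tested genes, of which 7.77% of genes tested were higher in morphants and 9.18% lower. Over all tested genes the log2 fold change had a median of 0.118, which is the level to read the values above against.

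**Figure D2:**
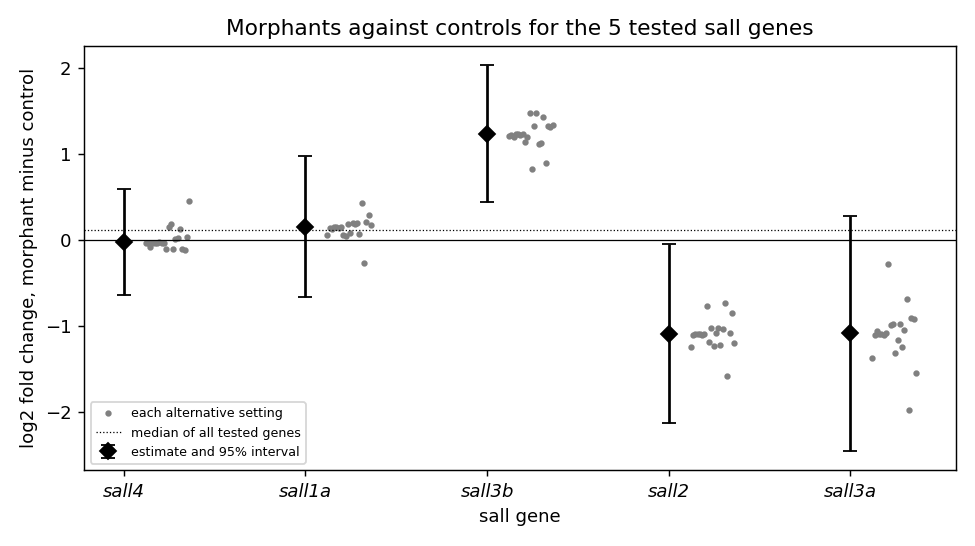
Log2 fold change, morphant minus control, of the 5 tested sall genes, with the edgeR estimate and its 95% interval (diamonds and bars) and the value under each of 20 alternative settings, 19 of them distinct fits (grey points). The intervals of sall4, sall1a and sall3a cover 0, that of sall3b runs from 0.44 to 2.03 and that of sall2 from -2.13 to -0.05, while the dotted line marks the median of all tested genes.

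The trend with length was examined for each tested member, since morphants 1 and 2 lay on opposite sides of it. At the length of sall3b the trend was -0.52 in morphant 1, 0.50 in morphant 2 and -0.18 in morphant 3, on the log2 CPM scale. As measured, sall3b lay 0.78, 1.75 and 1.09 above the control mean in morphants 1, 2 and 3. With the trend removed it lay 1.37, 1.32 and 1.34 above. The 3 morphants were then nearly equal for this gene. In that fit edgeR gave a log2 fold change of 1.33 (SE 0.24) and an adjusted p of 0.10, where 0.0955% of tested genes were called higher. Without morphant 2 and with the trend removed, a setting added after the data were seen, edgeR again gave 1.33 (SE 0.21) with an adjusted p of 0.017, and sall3b was then the 1 sall gene called, against 3.17% of tested genes called higher. The setting without morphant 1 and with the trend removed was also added after the data were seen. It gave 1.31 (SE 0.27, edgeR adjusted p = 0.12), where 0.146% of tested genes were called higher.

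For sall2 the deviations from the control mean were -2.26, -0.43 and -1.07 in morphants 1, 2 and 3 as measured, and -1.67, -0.86 and -0.82 with the trend removed. For sall3a they were -2.56, -0.14 and -1.43 as measured and -1.88, -0.65 and -1.16 with the trend removed, so that all morphants then lay below all controls for both genes, as they did for 9.67% of all tested genes in the same values. The morphants of sall1a went from -0.62, 0.73 and 0.05 to 0.03, 0.26 and 0.31. The target sall4, the longest member, did not draw together. Its deviations were -0.36, 0.09 and 0.15 as measured and 0.47, -0.55 and 0.46 with the trend removed, and no direction can be given for it. The part of length in these results was not tested beyond these fits.

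**Figure D3:**
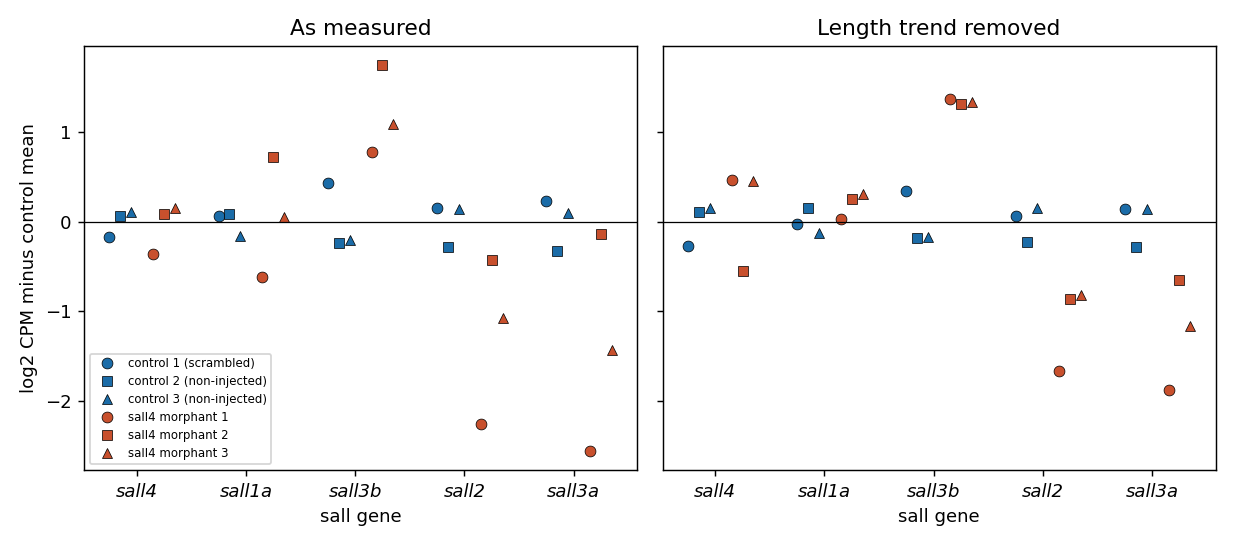
Deviation of each library from the control mean in log2 CPM for the 5 tested sall genes, as measured (left) and with a trend on gene length removed from each library (right). For sall3b the morphant values of 0.78, 1.75 and 1.09 become 1.37, 1.32 and 1.34, while those of sall4 spread from 0.47 to -0.55.

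The make-up of the family was compared as each gene's share of the summed sall FPKM. The target sall4 held 79.22%, 84.41% and 85.52% in the controls, against 79.95%, 71.15% and 80.35% in the morphants. Morphant 2 was lowest, and the scrambled control lay below morphants 1 and 3. The mean was 83.0% ± 3.36 (SD, n = 3) in controls and 77.2% ± 5.20 in morphants (exact two-sided permutation test, p = 0.30, where the smallest p that 3 against 3 can give is 0.10). The share of sall3b was 8.366%, 4.737% and 4.814% in controls and 12.25%, 15.59% and 10.68% in morphants, and the groups did not overlap (exact permutation test, p = 0.10). The share of sall2 was 1.182% to 1.774% in controls and 0.3775% to 0.8816% in morphants, again without overlap. For sall3a it was 0.189% to 0.3127% in controls and 0.04505% to 0.1792% in morphants, also without overlap. The FPKM of sall3a itself did overlap, with 0.4096 in morphant 2 against 0.3628 in control 2. Its share in morphant 2 was taken of the highest summed FPKM (228.6). The exact permutation test gave p = 0.10 for the shares of sall2 and sall3a, the smallest it can give. The FPKM of sall3b and of sall2 did not overlap between the groups either. Their shares thus repeat that separation and add no support to it. The summed FPKM itself was 188.2 ± 10.1 in controls and 199.9 ± 41.7 in morphants.

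The b copy of sall3 had the higher level of its pair in every library. The ratio of sall3b to sall3a in FPKM was 26.76, 25.07 and 18.96 for the controls, compared with 272.0, 86.99 and 140.5 for the morphants. On the log2 scale the mean ratio was 4.54 ± 0.26 (SD, n = 3) in controls and 7.22 ± 0.83 in morphants, a difference of 2.68. The groups did not overlap, and the exact two-sided permutation test gave p = 0.10, the smallest it can give. Over 7 distinct alternatives the difference ran from 2.19 to 3.07. The ratio of sall3b to sall1a was 0.8108, 0.5003 and 0.6145 in controls and 1.662, 1.28 and 1.295 in morphants, so the gene with the higher level per length of the pair changed between the groups. Both ratios were chosen with earlier results of these data known, and because members of a ratio come from one library, a factor common to both genes cancels. The SALL1 pair was also unequal but with the a copy higher, sall1a being at 11.21 FPKM or more and sall1b at 0.05886 or less.

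**Figure D4:**
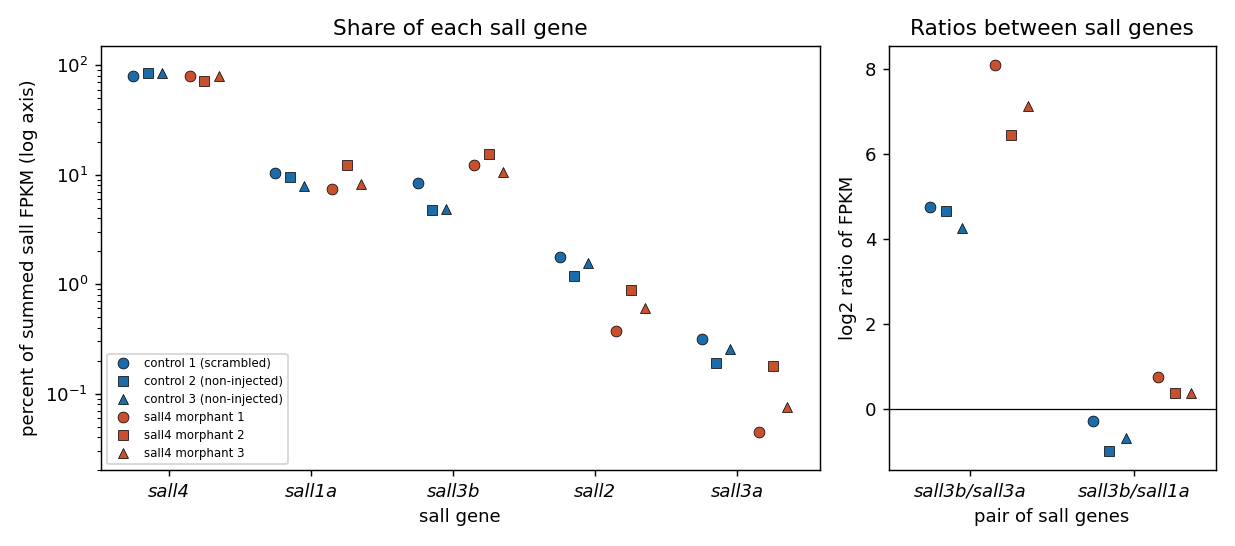
Left, percent of the summed sall FPKM held by each of 5 sall genes in each library (log axis). Right, log2 ratio of FPKM of sall3b to sall3a and to sall1a in each library. The log2 ratio of sall3b to sall3a averages 4.54 in controls and 7.22 in morphants, and that of sall3b to sall1a lies below 0 in every control and above 0 in every morphant.

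Lists of marker genes were read in the same libraries, and for several of them the sums of the groups did not overlap, as was also the case for sall3b and sall2. Neural tube markers, 8 genes, summed to 800.8 to 906.6 CPM in controls and 429.8 to 555.9 CPM in morphants, with 6 of the 8 below all controls in all morphants (9.18% of all tested genes). The 5 neuronal markers summed to 198.0 to 201.3 CPM in controls and 106.0 to 174.6 CPM in morphants, and 5 neural crest markers to 314.5 to 350.8 and 152.0 to 222.8 CPM. Of these, 3 neuronal and 4 neural crest markers lay below all controls in all morphants. The groups overlapped for nkx6.1, olig2, stmn2b and tfap2a, with log2 fold changes of -0.20, -0.61, -0.64 and -0.04. They also overlapped for neurog1, which had a positive log2 fold change (0.44). It held 42.82 to 90.81 CPM of the neuronal sums in controls and 38.36 to 114.3 CPM in morphants. The 6 pronephros markers summed to 86.63 to 102.8 CPM in controls and 60.68 to 81.1 CPM in morphants, but only hnf1ba of the 6 lay below all controls in all morphants. The sum is mostly hnf1ba and lhx1a, while cdh17, pax8 and pax2a had log2 fold changes of 1.80, 0.47 and 0.34, with overlapping groups, and the median of the 6 was 0.13. The 6 blood markers summed to 188.1 CPM in the scrambled control and 400.3 and 398.1 CPM in the non-injected controls. Their sums were 1585, 440.6 and 722.6 CPM in morphants 1, 2 and 3, so morphant 2 lay close to the non-injected controls. The globin genes hbbe1.1 and hbae3 had 9.22 and 12.5 CPM in the scrambled control. In the non-injected controls they had 72.82 to 82.6 and 96.7 to 127.3 CPM, and in morphants 99.06 to 500.7 and 166.9 to 779.0 CPM. Of the 6 blood markers, 4 lay above all controls in all morphants, against 7.77% of all tested genes, and the groups overlapped for tal1 (-0.11) and lmo2 (0.27). No list was at 0, and the sums of tailbud, presomitic mesoderm, notochord and floor plate, somite muscle, endothelium, epidermis and head markers and of p53 response genes overlapped between the groups. In the tailbud list, 1 of 5 tested genes, nkx1.2la, lay below all controls in all morphants. It had 103.3 to 173.6 CPM in controls and 52.35 to 61.8 CPM in morphants (-1.27, edgeR adjusted p = 0.21). In the presomitic mesoderm list this held for 1 of 7, tbx6 (-0.56, edgeR adjusted p = 0.57). The share was 9.18% of all tested genes, and 0 genes of either list lay above all controls in all morphants. By edgeR, 0 of the 71 tested genes of all marker and p53 lists passed the threshold, while 23 had an unadjusted p under 0.05 (9.66% of all tested genes). DESeq2 called 9 of the 71 (1.89% of all tested genes). Their part in the levels of the sall genes was not tested.

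**Figure D5:**
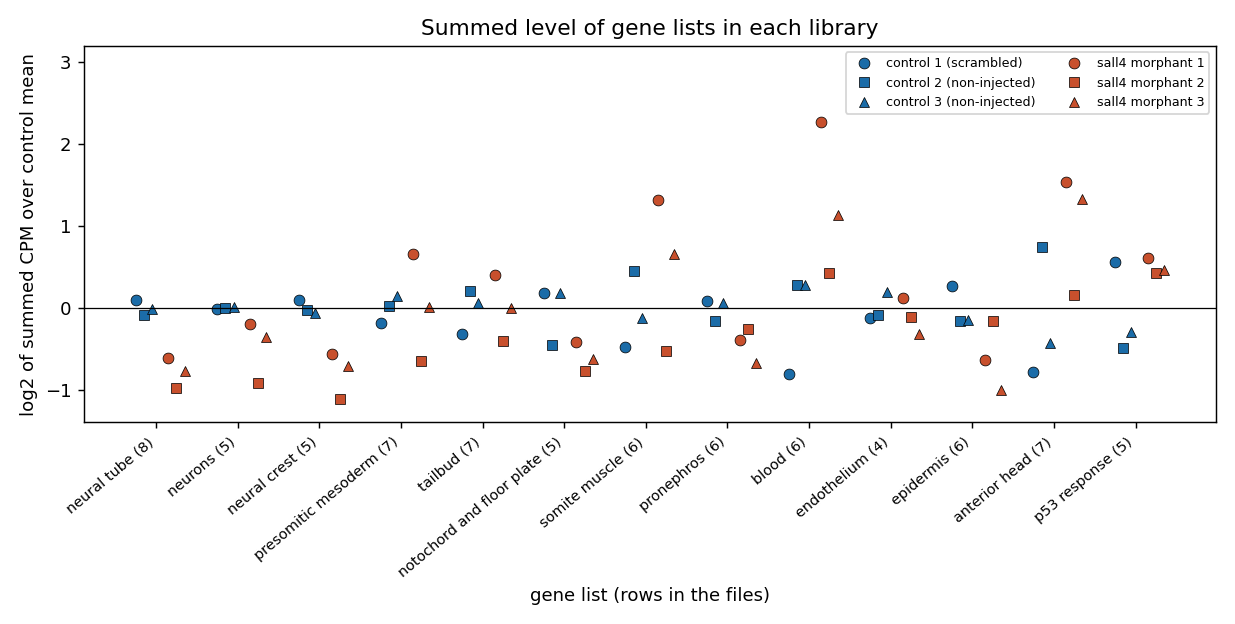
Log2 of the summed CPM of each gene list over its control mean, in each library, with the number of rows of the list in parentheses. Neural tube sums of 429.8 to 555.9 CPM in morphants lie below the control sums of 800.8 to 906.6 CPM, and blood sums lie above the controls in every morphant.

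Genes tied to Sall proteins were read from lists. Of 14 tested NuRD subunits, 0 passed the edgeR threshold, and their median log2 fold change was 0.08 against 0.118 for all tested genes. At an unadjusted p under 0.05 there were 4, against 9.66% of all tested genes. The subunit mta1, of the metastasis-associated family, had 33.5, 26.76 and 35.27 CPM in controls and 10.97, 15.23 and 13.06 CPM in morphants, all below the controls. It had a value of -1.28 (SE 0.28) on the log2 fold change scale, with adjusted p-values of 0.21 by edgeR and 0.0051 by DESeq2. DESeq2 thus called 1 of the 14, against 0.961% of all tested genes called lower. The related mta2 (-0.83, SE 0.34) and the scaffold subunit gatad2ab (-0.89, SE 0.35) had edgeR adjusted p-values of 0.50 and 0.47, and their groups overlapped.

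Of 13 tested genes linked to Sall4 in stem cells, the posterior body and the fin bud, 0 passed, 0 had an unadjusted edgeR p under 0.05, and the median log2 fold change was 0.01. The smallest p belonged to pou5f3, the zebrafish relative of the pluripotency factor Oct4. It had 153.0, 151.6 and 145.0 CPM in controls and 126.4, 58.95 and 91.57 CPM in morphants, all below the controls, at a log2 fold change of -0.70 (SE 0.32) and an edgeR adjusted p of 0.53. The RNA-binding protein gene lin28a had 223.7 to 248.8 CPM in controls and 257.0 to 403.5 CPM in morphants (0.50, SE 0.26, edgeR adjusted p = 0.57). The homeobox gene nanog had 1.096 to 3.427 CPM over all libraries, and its groups overlapped. The ubiquitin ligase that carries cereblon, which degrades human SALL4 in the presence of thalidomide, had 5 tested genes, of which 0 passed and 0 had an unadjusted edgeR p under 0.05. Their median was 0.00, and DESeq2 called 0 genes of either list. The lowest p among them belonged to cul4b, rbx1 and ddb1, with log2 fold changes of 0.46, 0.38 and -0.52, all with overlapping groups.

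The position of the members was read from the RefSeq gene order of the assembly GRCz12tu, which differs from the build of the files and gives order only. The named protein-coding gene after sall4 is atp9a, and the one after sall3b is atp9b, followed by nfatc1. The myelin basic protein copies mbpb and mbpa are among the named neighbours of sall3a and sall3b. Related genes thus flank different members. Up to 2 named protein-coding genes were taken on each side of each member, 24 in all, of which 18 were tested. By edgeR, 0 of the 18 passed the threshold and 1 had an unadjusted p under 0.05 (9.66% of all tested genes), and DESeq2 called 0. The groups did not overlap for 2, zfp64 and nfatc1, against 17.0% of all tested genes, so the neighbours did not exceed the background. The zinc finger gene zfp64, the named neighbour before sall4, had 7.241, 10.28 and 9.142 CPM in controls and 14.52, 25.09 and 10.77 CPM in morphants. Its log2 fold change of 0.92 (SE 0.38) had an edgeR adjusted p of 0.49.

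The tested neighbours of sall3b had log2 fold changes of the opposite sign. The phospholipid flippase gene atp9b had 1.427 to 2.076 CPM in controls and 0.6568 to 1.566 CPM in morphants, and nfatc1, a calcium-regulated transcription factor, had 2.762 to 3.427 and 0.7881 to 2.122 CPM. The log2 fold changes were -0.55 (SE 0.44) and -0.93 (SE 0.43), with edgeR adjusted p-values of 0.67 and 0.54. No annotated gene overlaps sall1a, sall3a, sall3b or sall4 in that assembly. The annotation of sall2 overlaps that of trim110, which had at most 0.3131 CPM, and sall1b overlaps 2 genes. The strand setting of the counting is not given in the sources used here, so counts of sall1b and sall2 are the less certain ones.

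Genes with a pattern like that of each tested member were found as those with the highest Pearson correlation of log2 CPM over the 6 libraries, among 9486 or 9487 genes whose average log2 CPM reached 3. The values describe these libraries, which share their groups and their length trend. The poly-ADP-ribose polymerase family gene parp4 (r = 0.984), the carboxypeptidase gene cpe (0.977) and the chaperone gene dnajc11a (0.975) were most like sall3b, and 0.917% of the genes compared reached r = 0.9. For sall2 they were ptprsa (0.997), a receptor phosphatase gene, nfatc3b (0.995) and tshz3b (0.995), a teashirt zinc finger gene, and 5.39% reached 0.9. The fibrillar collagen gene col5a3a (0.999), ubtd1b (0.998) and srebf1 (0.997), a regulator of lipid synthesis, were most like sall3a, and 7.67% reached 0.9. The gene sall1a was followed by dpy19l1l (0.998), cdc16 (0.997), a subunit of the anaphase-promoting complex, and ecpas (0.997), and 10.5% of genes reached 0.9.

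For sall4 no gene reached 0.9. The nearest were arl6ip4 (0.898), mat2ab (0.887) and qtrt1 (0.877). The pattern of sall4 over the libraries was thus matched less closely than that of the other tested members, in a gene whose levels varied little. Of the 15 genes named for likeness 0 passed the edgeR threshold, 3 had an unadjusted p under 0.05 (9.66% of all tested genes), and DESeq2 called 0. They were picked by their pattern over the same 6 libraries, so their fold changes repeat those of the members and add no support. The largest log2 fold changes among them were those of cpe (1.61, SE 0.49) and parp4 (1.50, SE 0.45), with adjusted p-values of 0.36 for both. The carboxypeptidase gene cpe had 12.07, 6.789 and 6.893 CPM in controls and 16.55, 45.72 and 16.08 CPM in morphants, with the scrambled control highest of the controls and morphant 2 highest of all, as for sall3b.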

How the data were processed

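RNA-seq was carried out on polyadenylated RNA from 6 libraries, 3 per group. The authors deposited whole-number counts per Ensembl gene and FPKM values. Per the submitters' processing notes, the build GRCz11 and the tools STAR 2.7.10a and DESeq2 1.38.3 were used, in roles those notes do not give. The counter, strand setting and annotation release were not stated there. Lengths relative to the median gene were derived from the ratio of deposited counts to deposited FPKM. Reads of paralogues or overlapping genes may be split.

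Genes were kept by filterByExpr, scaled by TMM, and a quasi-likelihood model with group alone was fitted to the whole table (edgeR 4.0.16, R 4.3.3). Tests are two-sided, the Benjamini-Hochberg adjustment runs over every tested gene, and the threshold is 0.05. The SE is the size of the log2 fold change divided by the square root of F, and intervals are 95%. Single values per library were compared by exact permutation. Alternatives included a replicate block, other scalings and filters, DESeq2 1.42.0, only 1 kind of control, limma 3.58.1 on log2 FPKM with pseudocounts of 1 and 0.1, removal of a lowess trend on length (span 0.3) and leaving out each library. The 2 settings that removed the trend and left out morphant 1 or morphant 2 were added after the data were seen, and are counted among the alternatives. No 2 libraries of a group agreed within sampling noise, with a chi-square per degree of freedom of at least 33.6.

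Members were taken by gene name, without use of a measured value. Earlier results of these data were known when members, lists and ratios were chosen. Named genes were the members and the 3 genes most like each. In the NuRD, Sall4-linked and cereblon ligase lists they were those past the threshold or otherwise the 3 with the smallest p. Genes named from the marker lists were chosen after their values were seen. The genes beside the members were chosen by position, after the values of the members were seen. Of the list genes, cdk2ap1 was not used here. Figures were drawn with matplotlib 3.10.9.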

Additional observations from a re-analysis of the deposited data

How the results depend on the processing

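The log2 fold changes of sall3b (0.82 to 1.48), sall2 (-1.58 to -0.73) and sall3a (-1.98 to -0.28) kept their direction in all 19 distinct alternatives, and the differences in the sall3b to sall3a ratio and in the share of sall4 did so in the 7 distinct ones run for each. The -0.28 of sall3a came from log2(FPKM + 1), where the pseudocount exceeds its FPKM of at most 0.5529 and shrinks the difference. When 1 library was left out, sall3a ranged from -1.98 to -0.68. The count of sall genes past the threshold was 0 to 2 when 1 library was left out, with sall2 and sall3a called without morphant 2, and 1 without morphant 2 and with the length trend removed. For NuRD genes it was 1 by DESeq2, 0 to 2 when 1 library was left out and 2 without morphant 2 and with the length trend removed. For genes linked to Sall4 it was 1, lin28a, in that last setting, and for the cereblon ligase it was 2 there and 0 to 2 when 1 library was left out. The list and sall genes called without morphant 2 were all lower, in a fit that called 4.37% of tested genes lower. With the length trend also removed, sall3b and lin28a were higher, the 2 ligase genes lower, and the NuRD genes 1 of each. The background there was 3.17% of tested genes called higher and 2.58% lower, and by DESeq2 it was 1.89% in either direction. The cause was not tested.

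The sign of sall4 differed between settings, with 0.14 against the scrambled control, 0.19 with the length trend removed, 0.032 and 0.45 with the trend removed and morphant 1 or 2 left out, and -0.12 to 0.12 when 1 library was left out. That of sall1a ranged from -0.27 to 0.43 and that of cul4b from -0.22 to 0.77 when 1 library was left out. Same-numbered libraries did not deviate together (correlations -0.29, -0.1 and 0.16), so the numbers were not taken as pairs. The replicate block gave 0 sall genes, 0 NuRD genes, 0 genes linked to Sall4 and 0 ligase genes past the threshold, with log2 fold changes of 1.21 for sall3b and -1.25 for sall2, and 0 genes called overall against 5. Over all tested genes the count of calls was 1534 without morphant 2, 1042 with the length trend removed as well, 20 with the trend removed in all libraries, 28 with no filter, 336 by DESeq2 and 19 without morphant 1. It was 11 on log2(FPKM + 1), 16 on log2(FPKM + 0.1), 32 without morphant 1 and with the trend removed, 1 with library-size scaling, and 0 without any 1 control or morphant 3 and against the scrambled control alone. At these depths sall1b gave too few counts to show a difference.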
